A study of Bos taurus with 6 samples.

Results

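The genes described here are the 7 that encode the subunits of AMP-activated protein kinase (AMPK) and the 3 of the folliculin complex (FLCN, FNIP1 and FNIP2), 10 of the 22839 gene symbols counted in longissimus thoracis (LT) muscle of Korean cattle (Hanwoo) steers. They were taken by name, and all 10 passed the filter on low counts. The set was selected on the higher counts of PRKAG2 and FNIP2 in the high-NFMP libraries, which were already known, so their fold changes, intervals and calls only describe the fit across all genes, and nothing is tested or supported with them. The 3 steers of the high-NFMP group (3-8, 10-8 and 10-9, aged 32.5, 33.8 and 34.5 months) had a high number of fine marbling particles, the small fat flecks of the cut muscle face. The 3 steers of the low-NFMP group (3-1, 3-3 and 10-16, aged 33.7 to 37.8 months) had a low number. In the paper, the sequenced high-NFMP steers also had a higher marbling score and a larger rib eye area. The number of fine particles cannot be told apart from these traits in the comparison. All 6 were raised conventionally on commercial feed, none was treated, and each gave 1 library of whole muscle, which holds fat, vessel and connective tissue cells beside the fibres.

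AMPK senses the energy state of the cell. It is built of a catalytic alpha, a scaffolding beta and a nucleotide-binding gamma subunit, and when AMP and ADP accumulate the gamma subunit binds them and the kinase turns down synthesis and turns up fuel oxidation, glucose uptake and autophagy. Folliculin works with FNIP1 or FNIP2 at the lysosome as a GTPase-activating protein for RagC and RagD, which lets mTORC1 phosphorylate the transcription factors TFEB and TFE3 and keep them out of the nucleus, and both FNIP proteins bind AMPK. In skeletal muscle the alpha2, beta2 and gamma3 subunits are known as the muscle-rich forms, and PRKAG3 is known for variants that change muscle glycogen in pigs.

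The libraries held between 16283873 and 17192750 gene-assigned reads. Reads came from a 3′ mRNA method, so normalized counts (counts brought to one common effective library size, the mean of the 6) are reads near transcript ends, and an order of genes by them is an order of reads and not of proteins. The 8 skeletal muscle fibre markers summed to between 1631987 and 1925501 normalized counts in the high-NFMP and between 1650124 and 2029648 in the low-NFMP steers. The 10 adipocyte markers summed to between 5734 and 14062 in the high-NFMP and between 5622 and 6990 in the low-NFMP steers, the highest sum being that of steer 3-8. All 10 had a log2 fold change above 0, with a median of 0.62. None passed the threshold of p below 0.05 with a fold change above 2, although 4 were higher at an unadjusted p below 0.05, a limit that 11.5% of all tested rows reached in either direction. The groups did not overlap in 3 of the 10, all higher with high NFMP, ADIPOQ (log2 fold change 0.63), CIDEC (0.89) and CIDEA (0.69), against 7.97% of all rows. The slow fibre markers summed to between 143802 and 226140 against 152253 and 199632, and the fast fibre markers to between 389830 and 572319 against 421111 and 510649. Among these, PVALB (parvalbumin, a fast fibre marker) passed the threshold, with a log2 fold change of 1.27 and overlapping groups (adjusted p = 0.322 by edgeR). MYL3, a slow myosin light chain, was at 3212 ± 194 against 5511 ± 1480 without overlap (log2 fold change -0.78, adjusted p = 0.145 by edgeR), whereas 4 of the 8 slow fibre markers had a log2 fold change above 0 and the median of the list was -0.07. The part of these markers in the results below was not tested. Fibroblast, endothelial and leukocyte lists reached 12235 to 15426, 1042 to 1571 and 422 to 626 in the high-NFMP steers against 9665 to 12505, 999 to 1304 and 368 to 654. In these lists the groups did not overlap in CLDN5 (log2 fold change 0.93), CSF1R (0.73) and CD14 (0.57), higher with high NFMP. PDGFRA (-0.51) and CDH5 (-0.16) were lower without overlap. Of all rows, 7.97% were higher and 9.15% lower without overlap. No row of these lists passed the threshold. No listed marker was at 0 in all libraries. In whole muscle, fewer cells of a type and less RNA per cell cannot be told apart.

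The question of the comparison was which of the 10 genes differ between high and low NFMP. PRKAG2, which encodes the gamma2 subunit, and FNIP2, which encodes a binding partner of folliculin, were higher in the high-NFMP group by 2.18-fold and 4.36-fold. They were the 2 genes of the 10 past the threshold of the study (unadjusted p below 0.05 and fold change above 2). Of all 15039 tested rows, 3.9% passed it, 2.53% with higher and 1.36% with lower counts in the high-NFMP group. The same 2 genes had an adjusted p below 0.05, as did 0.685% of all rows. For PRKAG2 that call was lost on omitting any single steer but 3-8 (5 of 6 omissions) and in 9 of 14 alternatives in all, and for FNIP2 in 1 of 14, quantile normalization with limma. Of all rows, 0 had such an adjusted p with that normalization, and between 0.182% and 0.529% with a steer left out. Over the 14 alternatives the log2 fold change ran from 0.87 to 1.36 for PRKAG2 and from 1.88 to 2.36 for FNIP2. Since the set was drawn up from these 2 genes, nothing is read from the number of calls. The other 8 genes had log2 fold changes between -0.67 and 0.38, and in the quasi-likelihood test of edgeR their adjusted p lay between 0.531 and 0.942. For 7 of the 8 the 95% interval of the fold change stayed within 2-fold in either direction, and for 1, FLCN, it did not. The median log2 fold change of these 8 was 0.01, and that of all tested rows was 0.02. The groups did not overlap in 3 of the 8, against 17.1% of all tested rows. The high-NFMP steers were above in 2 of them (PRKAA1 and FNIP1) and below in 1 (FLCN), against 7.97% and 9.15% of all rows.

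**Figure D1:**
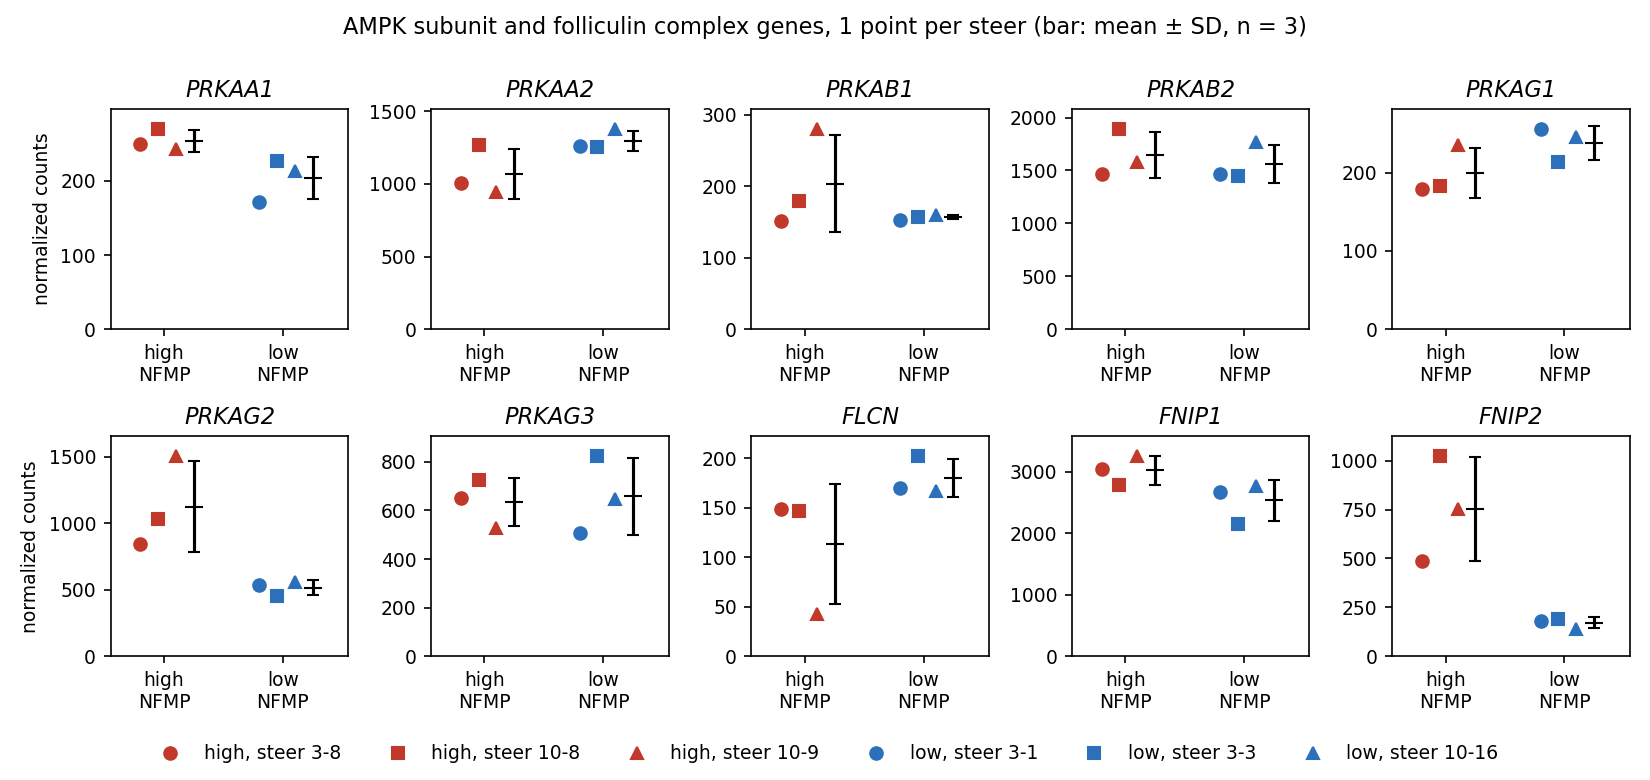
Normalized counts (vertical axes, each from 0) of the 10 genes in each steer, with high-NFMP steers in red, low-NFMP steers in blue and the mean ± SD (n = 3) as a black bar. FNIP2 lies between 486.4 and 1021.3 in the high-NFMP steers and between 142.3 and 192.5 in the low-NFMP steers, and the single low FLCN value is steer 10-9, at 43.1.

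The gamma subunits carry the nucleotide-binding sites of AMPK. PRKAG2 had 829, 926 and 1497 reads in steers 3-8, 10-8 and 10-9 (high NFMP) and 562, 486 and 555 reads in steers 3-1, 3-3 and 10-16 (low NFMP). Values of further genes follow this order of steers. After normalization these were 840.1, 1029.1 and 1501.3 against 537.8, 449.7 and 560.3, or 1124 ± 341 against 515.9 ± 58.4 (both SD, n = 3). No low-NFMP steer reached the lowest high-NFMP steer, and steer 10-9 stood highest. The log2 fold change was 1.12 (standard error, SE, 0.22, 95% interval 0.65 to 1.6), and it fell below the 2-fold limit without steer 10-9 (0.87) and in a fit with a term for the leading number of the steer name, 3 or 10 (0.97). The RefSeq table lists 12 transcript models of PRKAG2, and a count per gene symbol does not tell them apart.

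PRKAG1, the broadly expressed gamma1 subunit, moved the other way in the means without passing the test. It had 178.4, 183.4 and 235.7 normalized counts against 255.5, 213.8 and 245.3, where the groups overlap through steers 10-9 and 3-3. Its log2 fold change was -0.26 (SE 0.22, 95% interval -0.73 to 0.21, adjusted p = 0.684 by edgeR). PRKAG3, the muscle form gamma3, was at 651.6, 724.6 and 526.5 against 506.2, 821.7 and 648.1, so that both the lowest and the highest steer had a low NFMP. The log2 fold change was -0.05 (SE 0.21, 95% interval -0.51 to 0.40), and the sign turned to 0.08 without steer 10-9 and to 0.13 without steer 3-3. Whether the change of PRKAG2 differed from those of PRKAG1 and PRKAG3 was not tested.

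Within a library, the division of the gamma counts among the 3 genes needs no scaling between libraries. PRKAG2 held 50.3%, 53.1% and 66.3% of the gamma counts in the high-NFMP steers and 41.4%, 30.3% and 38.5% in the low-NFMP steers. The exact binomial intervals, which cover counting error only, ran from 47.9% to 52.7% in steer 3-8, the lowest of the high-NFMP group, and from 38.7% to 44.1% in steer 3-1, the highest of the low-NFMP group. PRKAG2 therefore had the largest share of the 3 gamma genes in every high-NFMP steer. Among the low-NFMP steers it had the largest share in steer 3-1, and PRKAG3 had it in steers 3-3 and 10-16. The mean shares of PRKAG1 (10.2% ± 0.637 against 17.0% ± 2.64, both SD, n = 3) and PRKAG3 (33.2% ± 8.67 against 46.3% ± 8.32) were lower with high NFMP. The groups did not overlap in the share of PRKAG1 and overlapped in that of PRKAG3. PRKAG2 is in the total of both shares, and the normalized counts of both genes overlapped between the groups. Together the gamma genes had 1957 ± 297 normalized counts against 1413 ± 99.4, without overlap, whereas PRKAG1 and PRKAG3 alone summed to 833.4 ± 72.9 against 896.9 ± 137.

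**Figure D2:**
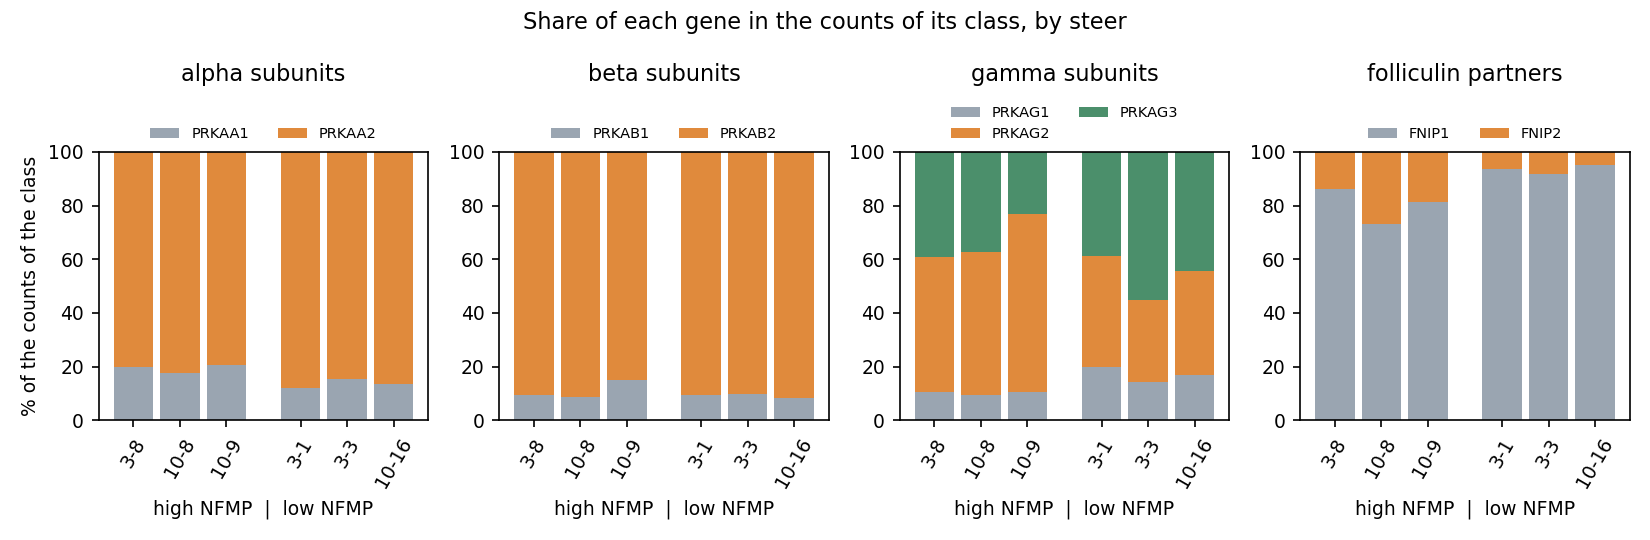
Share of each gene (vertical axis, percent) in the counts of its class in each steer, the 3 high-NFMP steers on the left of each panel and the 3 low-NFMP steers on the right. PRKAG2 takes between 50.3% and 66.3% of the gamma counts in the high-NFMP steers and FNIP2 between 13.8% and 26.9% of the counts of both folliculin partners, above all low-NFMP steers in both cases.

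The alpha subunits hold the kinase domain. PRKAA1 (alpha1, the form of most tissues) had 249.3, 270.1 and 242.7 normalized counts in the high-NFMP steers and 172.2, 227.6 and 213.0 in the low-NFMP steers. The high-NFMP steers were all above the low-NFMP steers, but the log2 fold change of 0.31 (SE 0.21, 95% interval -0.14 to 0.77) did not pass the test (adjusted p = 0.613 by edgeR). PRKAA2 (alpha2, the main muscle form) was at 1005.3, 1265.8 and 941.7 against 1260.2, 1256.6 and 1378.0. Steers 3-8 and 10-9 lay below the low-NFMP steers and steer 10-8 lay among them, and the log2 fold change was -0.28 (SE 0.18, 95% interval -0.66 to 0.11, adjusted p = 0.595 by edgeR). The share of PRKAA2 in the alpha counts combines both. It was 80.1%, 82.4% and 79.5% in the high-NFMP steers and 88.0%, 84.7% and 86.6% in the low-NFMP steers, a difference of means of -5.73 percentage points (high minus low), without overlap. The interval of steer 10-8 (80.3% to 84.4%) and that of steer 3-3 (82.8% to 86.4%) overlapped. The sum of both alpha genes was 1325 ± 186 against 1503 ± 80.9 normalized counts.

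The beta subunits hold the complex together and carry the glycogen-binding module. PRKAB2, the muscle form beta2, had overlapping groups, with 1470.4, 1890.4 and 1579.6 normalized counts against 1465.9, 1449.1 and 1763.7. The log2 fold change was 0.08 (SE 0.18, 95% interval -0.31 to 0.47), and in the fit with the leading number of the steer name it was -0.01. PRKAB1 (beta1) was at 151.0, 178.9 and 279.8 against 153.1, 157.3 and 159.5. The low-NFMP steers were nearly level, with a coefficient of variation of 2.08% against 33.3% in the high-NFMP group. The log2 fold change of PRKAB1 was 0.38 (SE 0.26, 95% interval -0.17 to 0.92), and over the alternatives it ran from 0.09 without steer 10-9 to 0.55 without steer 3-8, where its adjusted p by edgeR was 0.327 and its unadjusted p, 0.0496, was below 0.05. PRKAB2 held between 85% and 91.7% of the beta counts in the 6 libraries, the smallest being that of steer 10-9.

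FNIP2 was the gene of the folliculin complex with the larger difference. It was counted 480, 919 and 748 times against 190, 208 and 141 times, or 486.4, 1021.3 and 750.2 against 181.8, 192.5 and 142.3 after normalization. The lowest high-NFMP steer, 3-8, had more than any low-NFMP steer. Its means were 752.6 ± 267 and 172.2 ± 26.4 (both SD, n = 3), and the log2 fold change was 2.13 (SE 0.26, 95% interval 1.57 to 2.68). With each steer left out in turn it lay between 1.88 and 2.36, the lowest being without steer 10-8. C17H4orf45 overlaps FNIP2 in the RefSeq table of ARS-UCD2.0, and it was counted 111, 70 and 105 times against 43, 99 and 57 times, with overlapping groups and a log2 fold change of 0.63 (adjusted p = 0.494 by edgeR). Its part in the counts of FNIP2 was not tested.

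FNIP1, the other partner of folliculin, had the most reads of the 10 genes in each library. It was at 3038.1, 2780.6 and 3247.4 normalized counts against 2677.3, 2154.2 and 2771.2. The groups did not overlap, although steers 10-8 and 10-16 were nearly level, and the log2 fold change was 0.25 (SE 0.18, 95% interval -0.13 to 0.64, adjusted p = 0.633 by edgeR). FNIP2 made up 13.8%, 26.9% and 18.8% of the reads of both partners in the high-NFMP steers and 6.36%, 8.20% and 4.89% in the low-NFMP steers. The closest intervals were 12.7% to 15% in steer 3-8 and 7.16% to 9.34% in steer 3-3, and the group means were 19.8% ± 6.59 against 6.48% ± 1.66 (both SD, n = 3). Both partners together had 3775 ± 238 against 2706 ± 313 normalized counts, without overlap.

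FLCN, folliculin itself, had the fewest reads of the set by the mean over all 6 libraries, though in the low-NFMP steers it ranked from 8 to 9. Its counts were 147, 132 and 43 against 178, 218 and 165, or 149.0, 146.7 and 43.1 against 170.3, 201.7 and 166.6 after normalization. All high-NFMP steers lay below all low-NFMP steers, with steer 10-9 far below the rest. The log2 fold change was -0.67 (SE 0.37, 95% interval -1.48 to 0.14, adjusted p = 0.531 by edgeR), and over the 14 alternatives it ran from -1.03 with age as a term to -0.27 without steer 10-9, with adjusted p between 0.345 and 0.782. Its unadjusted p was below 0.05 in 1 of them, without a filter on low counts (0.0454, fold within 2). A fall of more than 2-fold is thus within the interval, and so is no difference.

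**Figure D3:**
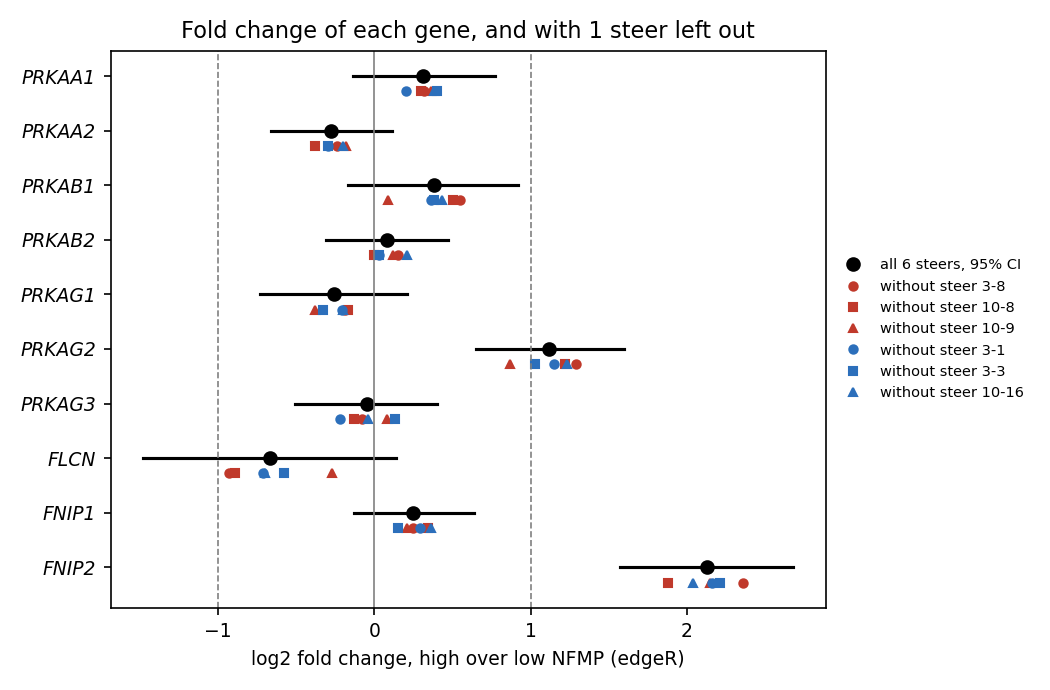
Log2 fold change of high over low NFMP (horizontal axis) for the 10 genes, with the estimate from all 6 steers and its 95% interval in black and the estimates with 1 steer left out as small coloured points below it. Dashed lines mark a fold change of 2, which PRKAG2 no longer reaches without steer 10-9 (0.87) and FNIP2 passes in every case (lowest 1.88).

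Relative to the mean of the high-NFMP group on the log2 scale, steer 10-9 was 0.51 higher in PRKAB1, 0.46 higher in PRKAG2 and 1.15 lower in FLCN (-1.15). On the same scale steer 3-8 was at -0.56 in FNIP2, -0.38 in PRKAG2 and -0.37 in PRKAB1. Steer 10-8 was at 0.5 in FNIP2. The library total of steer 10-9 (16798460) and its scaling factor (0.998) were within the range of the other libraries. RNA quality was not compared, and the cause of these deviations was not tested.

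By mean normalized count over the 6 libraries, the order was FNIP1 (2778), PRKAB2 (1603), PRKAA2 (1185), PRKAG2 (819.7), PRKAG3 (646.5), FNIP2 (462.4), PRKAA1 (229.2), PRKAG1 (218.7), PRKAB1 (179.9) and FLCN (146.2). FNIP1 was first and PRKAB2 second in every library. PRKAA2 exceeded PRKAG2 in 5 of 6 libraries, the exception being steer 10-9. Further down, the order split by group. PRKAG2 exceeded PRKAG3 in all 3 high-NFMP steers and in 1 of the 3 low-NFMP steers, and so did FNIP2 exceed PRKAA1 and PRKAA1 exceed PRKAG1. PRKAG3 exceeded FNIP2 in all 3 low-NFMP steers and in 1 high-NFMP steer, 3-8. PRKAB1 exceeded FLCN in the 3 high-NFMP steers and in 0 of the low-NFMP steers. FNIP2 ranked from 5 to 6 among the 10 genes in the high-NFMP steers and from 7 to 10 in the low-NFMP steers, so its mean over all 6 describes neither group. The average level of FNIP1 was at or above that of 95.5% of the tested rows, and that of FLCN was near their middle, at 50.4%.

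The genes whose level ran most like PRKAG2 over the 6 libraries, by Pearson correlation of log2 normalized counts (CPM), were IRS2 (r = 0.9921), ASRGL1 (r = 0.9907) and EHD1 (r = 0.9857). IRS2 is an adaptor of the insulin receptor, ASRGL1 an asparaginase and EHD1 a protein of endocytic recycling. IRS2 was at 522.9, 679.0 and 892.6 normalized counts in steers 3-8, 10-8 and 10-9 and at 339.7, 276.7 and 393.7 in steers 3-1, 3-3 and 10-16, so it shared the top place of steer 10-9 with PRKAG2. The genes most like FNIP2 were HDC (histidine decarboxylase, r = 0.9974), HIC1 (a transcriptional repressor, r = 0.9891) and DBP (a clock output transcription factor, r = 0.9879). HDC rested on few reads, between 3.0 and 22.2 normalized counts, and DBP was at 76.0, 125.6 and 95.3 against 39.2, 48.1 and 41.4. Each of these correlations is over 6 libraries that also fall into the 2 groups, was picked as the highest among 15039 rows, and is a description only.

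**Figure D4:**
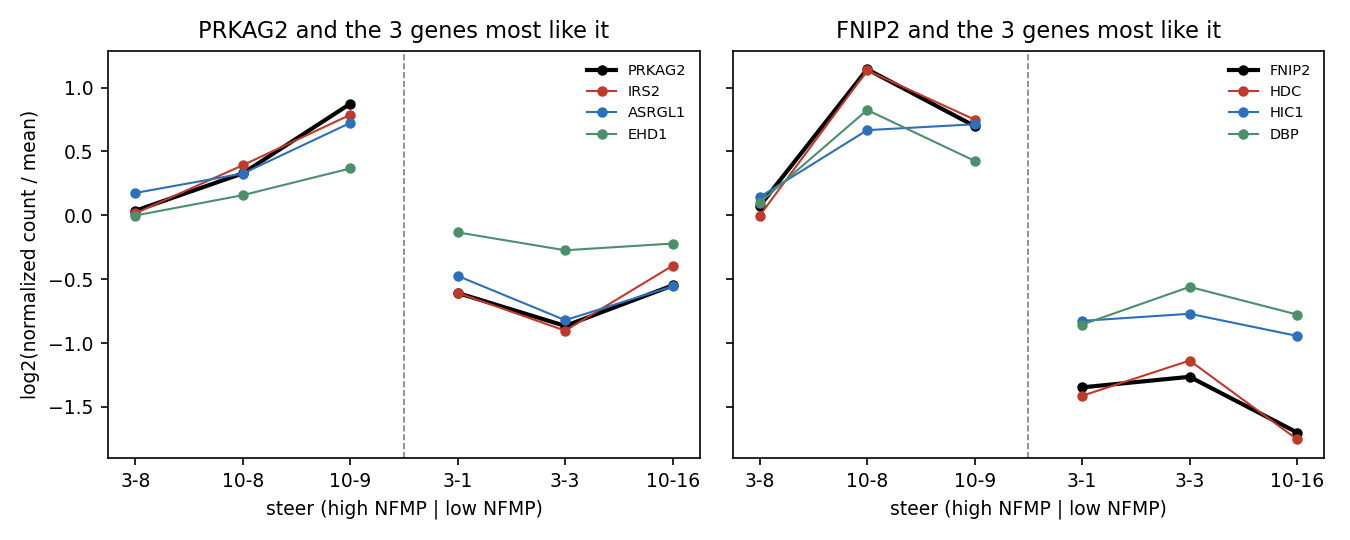
Log2 of the normalized count over its mean (vertical axis) in the 6 steers for PRKAG2 and FNIP2, in black, and for the 3 genes most correlated with each, in colour, with the high-NFMP steers left of the dashed line. PRKAG2 and IRS2 have their highest point in steer 10-9, and FNIP2, HDC and DBP have theirs in steer 10-8. Lines join steers of a group only to guide the eye.

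Around the 10 genes, 5 lists held 98 others of the AMPK and folliculin pathways. Of these, 97 were examined, in 98 rows since MARK4 had 2, and C9orf72 was not analysed here. Of the 94 tested rows, 1 passed the threshold of p below 0.05 and fold change above 2, which is 1.06%, against 3.9% of all tested rows. In the edgeR comparison of all 6 steers 0 rows had an adjusted p below 0.05, and 17 (18.1%) had an unadjusted p below 0.05, 8 higher and 9 lower, against 11.5% of all tested rows. With DESeq2 the adjusted p was below 0.05 for 3 of them, STRADB (0.0232), PPARGC1A (0.0299) and SESN1 (0.0242), all within 2-fold, and for 1.91% of all rows, more than in the edgeR comparison (0.685%). With edgeR and no filter on low counts it was below 0.05 for the same genes (0.0432, 0.0439 and 0.0244) and for 1.04% of all rows. SESN1 also had an adjusted p of 0.0389 with age as a term and of 0.0149 without steer 3-1, where 0.206% and 0.529% of all rows were below 0.05.

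The row past the threshold was NUAK1, an AMPK-related kinase that LKB1 activates. It was at 21.3, 16.7 and 15 normalized counts against 38.3, 51.8 and 51.5, without overlap. Its log2 fold change was -1.41 (SE 0.40, 95% interval -2.26 to -0.56, adjusted p = 0.158 by edgeR), and it stayed past the threshold with each steer left out, between -1.57 and -1.29. The other 11 tested rows of the AMPK-related kinases did not pass, and the median of the list was 0.23.

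Upstream of AMPK, none of 13 tested rows passed in either direction, and the median log2 fold change was -0.14. STRADB, a pseudokinase that binds and activates LKB1, had the smallest p of the list. It had 351.6, 304.5 and 305.9 normalized counts against 619.1, 559.8 and 474.5, without overlap, and a log2 fold change of -0.78 (SE 0.19, adjusted p = 0.0949 by edgeR). The scaffold CAB39 (MO25) of the same complex had a log2 fold change of -0.47 (adjusted p = 0.329 by edgeR), and STK11, the gene of LKB1 itself, was at 751.4 ± 116 against 682.8 ± 107. The related genes CAB39L and STRADA had log2 fold changes of 0.16 and -0.21. At an unadjusted p below 0.05 by edgeR, 1 row of the list was higher (PPP1R3C, 0.81) and 3 were lower, against 11.5% of all tested rows in either direction. Of the other AMPK kinases listed, CAMKK2 was at 268.9 ± 37.2 against 229.7 ± 14.9, and CAMKK1 had too few reads to be tested. MAP3K7 (TAK1) was at 58.8, 36.7 and 44.1 against 103.3, 82.4 and 51.5, with overlapping groups and a log2 fold change of -0.76 (SE 0.35, adjusted p = 0.429 by edgeR).

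Downstream, none of 28 tested rows of AMPK substrates and output genes passed, with a median of 0.08. The smallest p belonged to PPARGC1A, the coactivator PGC-1alpha of mitochondrial genes, which is also listed among the targets of TFEB and TFE3. It was at 2849.6, 5121.1 and 4057.7 normalized counts against 2849.5, 1730.4 and 1763.7. Steers 3-8 and 3-1 were level, the other high-NFMP steers were above them and the other low-NFMP steers below, and the log2 fold change was 0.92 (SE 0.25, adjusted p = 0.145 by edgeR), between 1.12 and 1.36 in the 3 alternatives where it passed. The classical substrates ACACB and TBC1D1, of fatty acid oxidation and glucose uptake, had log2 fold changes of -0.12 and 0.06. At an unadjusted p below 0.05 by edgeR, 4 of the 28 rows were higher and 3 lower, against 11.5% of all tested rows in either direction. The higher were PPARGC1A, CRTC2 (0.98), SREBF1 (0.64) and LIPE (0.55), and the lower were PIKFYVE (-0.64), TXNIP (-0.6) and RPTOR (-0.52).

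In the lysosomal nutrient-sensing list, none of 28 tested rows passed in the comparison of all 6 steers, with a median of 0.12. SESN1, a sestrin that restrains mTORC1, had the smallest p, at 2588.2, 2086.0 and 2202.4 normalized counts against 2529.9, 6026.8 and 5037.7. Steer 3-1 lay among the high-NFMP steers, and the log2 fold change was -0.98 (SE 0.27, adjusted p = 0.156 by edgeR). SESN1 thus lay just inside the 2-fold limit, and it was past p and fold in 5 of 14 alternatives, at -1.01 without a filter, -1.05 with library totals, -1.46 with age as a term, -1.08 without steer 3-8 and -1.27 without steer 3-1. RRAGC, the gene of RagC, was at 367.8 ± 84.1 against 265.8 ± 28.5, without overlap (log2 fold change 0.47, adjusted p = 0.429 by edgeR). RRAGD, the gene of RagD, was at 2966 ± 162 against 3293 ± 176 (log2 fold change -0.15). Of the MiT/TFE factors and their targets, none of 17 tested rows other than the folliculin genes passed, with a median of -0.07. TFEB and TFE3 had log2 fold changes of 0.03 and 0.15, and MITF was at 3481 ± 360 against 4884 ± 976, a log2 fold change of -0.49 (adjusted p = 0.349 by edgeR).

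**Figure D5:**
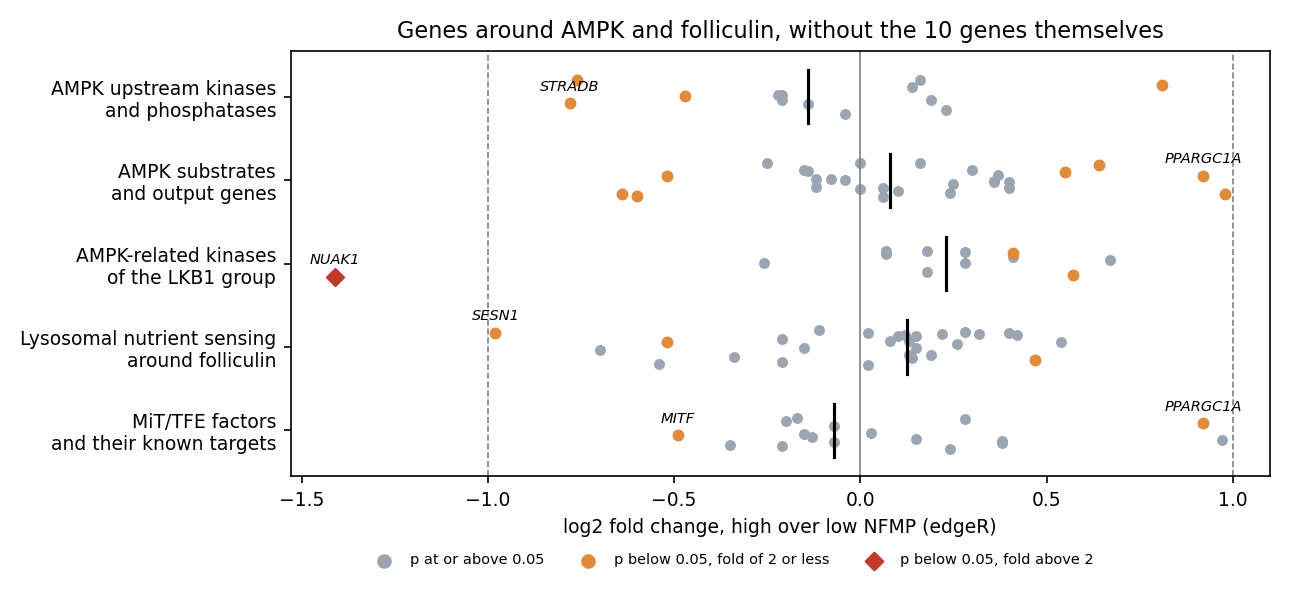
Log2 fold change of high over low NFMP (horizontal axis) for each tested gene of the 5 lists around AMPK and folliculin, without the 10 genes themselves, with the list median as a black bar and dashed lines at a fold change of 2. NUAK1, at -1.41, is the only point past the threshold of p and fold change, and the medians lie between -0.14 and 0.23.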

How the data were processed

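Total RNA of LT muscle from 6 steers was sequenced by the authors after 3′ mRNA library construction, named Quant-Seq in the labels and SENSE 3′ in the paper. The deposited values are raw counts of reads for each gene symbol. The methods of the authors name Tophat2 with HTSeq in one place and Bowtie2, with unique and multiple alignments, in another (the labels name Bowtie2 and bedtools), and it is not given in the sources which of them made these counts or whether strand was used. Groups came from the sample labels, which give 1 library for each steer.

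The 23015 rows were filtered with edgeR 4.0.16 in R 4.3.3 (minimum count 10, minimum total 15), which left 15039 rows. After TMM normalization, high and low NFMP were compared by the quasi-likelihood test, with Benjamini-Hochberg adjustment over all tested rows. Repeated symbols were tested as separate rows. Standard errors and 95% intervals were derived from the fold change and the F statistic. An exact permutation test of 3 against 3 cannot give a p below 0.1, so the tests lean on dispersions that edgeR shares between genes. Shares were given exact (Clopper-Pearson) binomial intervals. No molecular identifiers were counted, so these intervals cover counting error only.

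Alternatives were other filters, RLE factors, library totals, DESeq2 1.42.0, quantile normalization of log2(count + 1) with limma 3.58.1, added terms for the leading number of the steer name (3 or 10) or for age, and the omission of single steers. The procedures were tested on simulated counts. The genes, lists and tests were chosen with earlier results of these data known. Genes named beside the 10 were, in each pathway list, those past the threshold or else the one with the smallest p, and the 3 genes most correlated with PRKAG2 and with FNIP2. CAB39, CAB39L, STRADA, STK11, CAMKK1, CAMKK2, MAP3K7, ACACB, TBC1D1, SREBF1, LIPE, PIKFYVE, TXNIP, RPTOR, RRAGC, RRAGD, TFEB, TFE3, MITF, PVALB, MYL3, ADIPOQ, CIDEC, CIDEA, PDGFRA, CDH5, CLDN5, CSF1R, CD14, CRTC2, ATP6V0D2, PPP1R3C and MLST8 were named after their values were seen. Overlapping genes and transcript models were read from RefSeq's table for ARS-UCD2.0, which lists all 10 genes. It is not the build named in the paper, so no coordinates are given.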

Additional observations from a re-analysis of the deposited data

How the results depend on the processing

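The log2 fold changes of the 10 genes were computed under 14 alternatives. Of the 140 values, 135 kept their direction and their side of the threshold. PRKAG2 fell below a fold change of 2 in 2 of them, at 0.97 with a term for the leading number of the steer name and at 0.87 without steer 10-9, so that 1 gene of the 10, FNIP2, was then past the threshold instead of 2. The sign turned for PRKAB2 with the name number as a term (-0.01) and for PRKAG3 without steer 10-9 (0.08) or 3-3 (0.13), the range of PRKAG3 with a steer left out being -0.22 to 0.13. The cause was not tested. With a steer left out, 1 to 2 genes passed the threshold and 1 to 2 had an adjusted p below 0.05, PRKAG2 being lost at that adjusted p in 5 of the 6 fits (all but that without steer 3-8). In these 6 fits between 4.06% and 4.83% of all rows passed the threshold, and between 0.182% and 0.529% had such an adjusted p. At that adjusted p, 1 gene was left with library totals alone, with the name number or with age as a term, FNIP2 each time, and 0 with quantile normalization and limma, where 2 had an unadjusted p below 0.05. The shares of all rows at that adjusted p were 0.459%, 0.598%, 0.206% and, with quantile normalization and limma, 0%. Of the pathway genes, 2 passed the threshold without a filter, 2 with library totals, 6 with age as a term and between 1 and 5 with a steer left out, the most without steer 3-8 (5) and steer 3-1 (4), against 1. Of all rows, 4.21%, 3.75%, 4.33%, 4.83% and 4.1% passed in the same 5 fits, against 3.9%. NUAK1 passed in all 14 alternatives, SESN1 in 5, PPARGC1A, CRTC2 and ATP6V0D2 in 3 each, PPP1R3C in 2 and MLST8 in 1. The share of PRKAB2 in the beta counts differed by -1.82 percentage points (high minus low), and with a steer left out by between -3 and 0.201, the positive value being without steer 10-9. How depth limits each gene was not compared.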
